A study of Mus musculus with 8 samples.

Results

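Arginine and creatine synthesis in the kidney was followed through 10 genes, Ass1, Asl, Arg2, Oat, Gatm, Gamt, Ckb, Ddah1, Ddah2 and Agxt2. They were taken by name from a table of 35275 genes in whole mouse kidney. Each name matched 1 row, and all 10 had a mean level high enough to be among the 12118 genes tested. RNA came from the left kidney of 8 male mice on a C57BL/6J background, killed at 40 weeks of age, and poly-A selected before sequencing. The 4 KO mice were homozygous for a germline deletion of 679 bp in exon 4 of C1qtnf1 (also called Ctrp1), which includes 162 bp of the 3' UTR. Their 4 wild-type (WT) littermates carried no deletion. The allele was made in 129S5 embryonic stem cells and crossed to C57BL/6J for more than 6 generations, and because it is present in every cell, no effect can be assigned to the kidney itself. All 8 mice, the WT controls included, received high-fat chow (60% of calories as fat) from 6 weeks of age, so diet was not compared. The question addressed was whether the loss of CTRP1, a secreted protein, altered these genes in older mice on that diet.

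The kidney makes much of the arginine that circulates in the body. Cells of the proximal tubule take up citrulline released by the intestine, join it to aspartate through argininosuccinate synthetase (Ass1) and split the product into arginine and fumarate through argininosuccinate lyase (Asl). Part of the arginine serves creatine synthesis, in which glycine amidinotransferase (Gatm) forms guanidinoacetate, which is methylated to creatine by guanidinoacetate methyltransferase (Gamt), in large part in the liver. Methylated arginines freed from proteins inhibit nitric oxide synthases and are removed by dimethylarginine dimethylaminohydrolase (Ddah1) and by the mitochondrial aminotransferase Agxt2.

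None of the 10 genes differed between KO and WT past the threshold. Values are FPKM, that is, sequenced fragments scaled for gene length and library depth, and the test was limma on log2(FPKM + 1) after a scaling between libraries, with p-values adjusted over all 12118 genes and a threshold of 0.05. Of the 10, 0 were higher, 0 were lower and 10 did not pass, where 0.0413% of all genes tested passed (0.0165% higher and 0.0248% lower, that is 2 and 3 genes). By limma at an unadjusted p under 0.05, 1 of the 10 was called, Agxt2, and 0 of the 10 genes passed after adjustment in any of the 15 alternative analyses. At the same unadjusted limit 5.95% of all genes were called. Their fold changes lay between -0.22 and 0.29 on the log2 scale with a median of -0.09, against -0.01 over all genes tested. Of the 10, 7 were below 0, where 52.8% of all genes tested were. A missed threshold does not show that levels were equal, so the 95% interval of each difference is given.

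The 8 libraries held 17884140 to 20344859 reads. In WT C1qtnf1 had 5.27 to 5.55 FPKM and in KO 0.322 to 0.883 FPKM, so each library matched its genotype. None of the 10 genes lies on chromosome 11 with C1qtnf1. One library stood apart: the FPKM of KO replicate 2 summed to 525275, against 437496 to 450339 in the other 7. Its summed FPKM over 7 markers of the first and second proximal tubule segments (S1 and S2) was 3758, against 4220 to 4985 in WT and 4672 to 4753 in the other KO mice. Over 6 markers of the third segment (S3) it was 1783, against 1305 to 1457 and 1232 to 1258. Single genes made up most of these sums, with Slc34a1 at 2906 FPKM and Slc27a2 at 1184 FPKM in KO replicate 2. The summed FPKM of 5 endothelial markers was 130 in that mouse, against 194 to 225 in WT and 205 to 237 in the other KO mice. None of the markers of kidney cell types examined was at 0 in all 8 libraries. In whole tissue, fewer cells of a type and less RNA per cell cannot be told apart. Genes of 1 cell type also went opposite ways in KO replicate 2. Of the distal convoluted tubule markers, Slc12a3 (3307 bases) was at 151 FPKM there, against 293 to 350 in the other 7 mice. Pvalb (977 bases) was at 51.4, against 31.7 to 42.2, and Trpm6 (6508 bases) at 2.20, inside the range of the others. The part of cell content, gene length or RNA quality in these values was not tested.

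To place these genes in the genome, short stretches of sequence from before the RefSeq start sites (build GRCm38.p6) are shown for the gene with the lowest p (Agxt2), the gene with the largest fold change when all 8 mice are used (Ckb) and the most abundant enzyme of each synthesis (Ass1 and Gatm). Each is 30 bases long, 5′ to 3′ on the strand of the gene, with 1 motif in capitals.
Agxt2: cttctaatatCAAAGTCCAgtccagtcagt
Ckb: gaatgaatgggcTATAAAtagccgccaatg
Ass1: ggccgggcccgaGGGCGGggcctttctcgc
Gatm: tgttcctggcagCCAATgggccaggccctg

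The Agxt2 stretch (chr15:10358502-10358531, plus strand) holds CAAAGTCCA, a form of the site bound by the liver and kidney factor HNF4A. It begins 21 bases before 1 annotated start and 67 bases before another. Searched on both strands in windows from 250 bases before to 50 bases after each start, this motif was in 1 of the 8 genes with an entry and in 0.475% of 32851 windows of all genes. The Ckb stretch (chr12:111672349-111672378, minus strand) holds TATAAA, the core of a TATA box, 28 bases before the start. TATAAA was found in 2 of the 8 genes (Ckb and Agxt2) and in 13.6% of all windows. The GC box GGGCGG lies 63 bases before the RefSeq start of Ass1 (chr2:31470195-31470224, plus strand). In the GENCODE M21 annotation Ass1 begins at 31470207, inside this stretch, so by that annotation the box is not before the start. The GC box was found in Ass1, Oat, Gamt and Ddah2 and in 35.7% of all windows. The CCAAT box lies 55 bases before the start of Gatm (chr2:122611315-122611344, minus strand) and was found in Gatm, Oat and Ckb and in 37.4% of all windows. AGGTCA, the hexamer bound by many nuclear receptors, was also searched and was in Gatm and Agxt2 and in 16.3% of all windows. No matches of different motifs overlapped in the stretches shown. The matches describe these windows alone, and no binding was measured.

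The levels of the 10 genes spanned more than 3 orders of magnitude. By mean FPKM over the 8 mice the order was Ass1 (2599.8), Gatm (337), Asl (122), Ddah1 (84.3), Ckb (76.3), Oat (68.0), Agxt2 (39.5), Gamt (30.9), Ddah2 (15.2) and Arg2 (1.03). Ass1 ranked 15 by level among the 12118 genes tested, and Gatm ranked 162. Together the 10 genes made up 0.594% to 0.797% of the summed FPKM of a library, and Ass1 was 75.7% to 78.4% of their sum. In this order Ckb and Oat overlapped within WT (63.1 to 78.6 and 64.4 to 76.3 FPKM), and Ddah1 and Ckb overlapped within KO (71.0 to 84.3 and 72.3 to 109 FPKM). Agxt2 and Gamt overlapped within KO, at 34.7 to 38.2 and 27.4 to 39.3 FPKM, but not within WT. Levels are compared per length, with gene lengths of 988 (Gamt) to 3764 bases (Ddah1) as worked out from the deposited values.

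**Figure D1:**
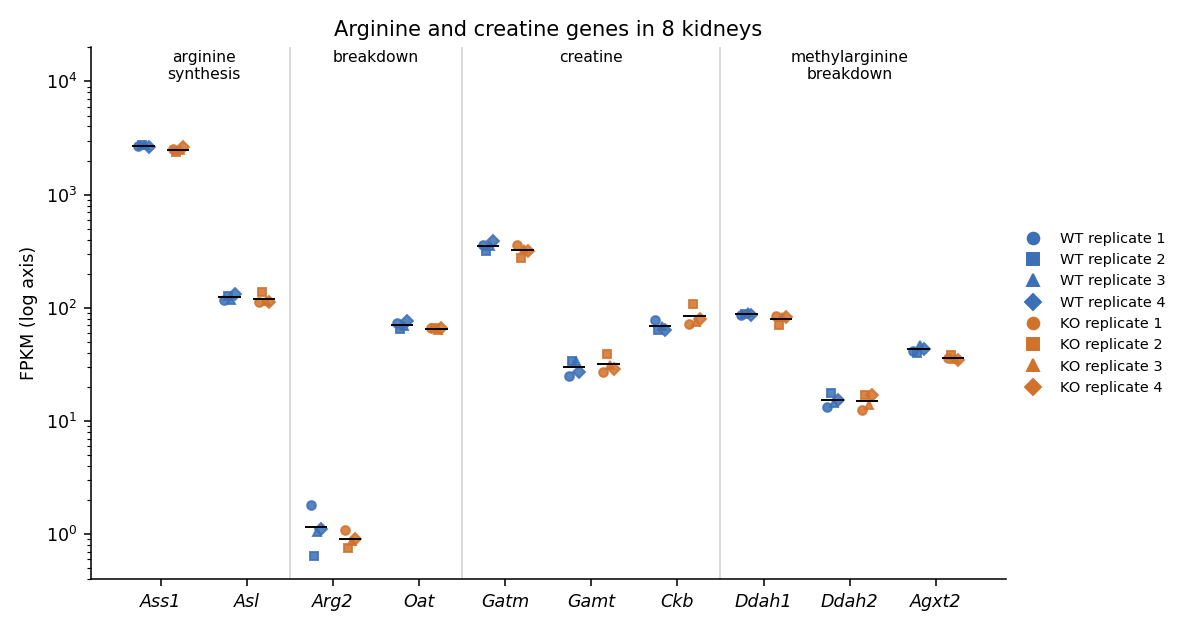
FPKM on a log axis for each of the 10 genes, grouped by role, with 1 point per mouse (blue for WT, orange for KO, shape for the replicate) and a black line at each group mean. Ass1 lies near 2599.8 FPKM and Arg2 near 1.03 FPKM in both groups, and the KO and WT points of each gene lie close together relative to the distances between genes.

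Ass1, the enzyme that commits citrulline to arginine synthesis, lies on chromosome 2 from 31470207 to 31520672 (mm10). Its FPKM in WT replicates 1 to 4 were 2691, 2730.2, 2745 and 2645, and in KO replicates 1 to 4 they were 2529, 2361, 2486 and 2609.8. All 4 KO mice lay below all 4 WT mice in the deposited values, with 2703 ± 44.7 FPKM in WT and 2497 ± 104 FPKM in KO (SD, n = 4 each). After scaling between libraries the groups overlapped, with 2559 to 2798 in WT and 2477 to 2575 in KO. WT replicate 1 was then the lowest WT mouse. The log2 fold change was -0.09 ± 0.10 (SE), with a 95% interval from -0.31 to 0.12 (limma adjusted p = 0.87). At 73665 to 92548 reads a library, counting error is far below the spread between mice.

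Asl, which releases arginine from argininosuccinate, lies on chromosome 5 from 130011258 to 130029247. It was at 118, 128, 118 and 131 FPKM in WT and at 114, 139, 116 and 112 FPKM in KO. KO replicate 2 was the highest of the 8 mice, and in the deposited values the other 3 KO mice lay below every WT mouse. KO and WT differed by a log2 fold change of -0.03 ± 0.11 (95% interval -0.28 to 0.22, limma adjusted p = 0.97). Without KO replicate 2 it was -0.13 ± 0.07 (limma adjusted p = 0.52). The level of Ass1 was 20.1 to 23.3 times that of Asl in WT and 21.5 to 23.3 times in the KO mice other than replicate 2, where it was the lowest of the 8 mice.

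Oat, ornithine aminotransferase, turns ornithine toward glutamate and proline in mitochondria, and lies on chromosome 7 from 132557478 to 132576398. WT mice had 73.0, 64.4, 68.5 and 76.3 FPKM, and KO mice had 66.0, 66.0, 64.3 and 65.8 FPKM. The KO values lay within 1.76 FPKM of each other and inside the wider WT range, apart from KO replicate 3, which was marginally below it. Its log2 fold change was -0.08 ± 0.08 (95% interval -0.27 to 0.11, limma adjusted p = 0.87).

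Arg2, the mitochondrial arginase that splits arginine into ornithine and urea, lies on chromosome 12 from 79130777 to 79156301. It was the lowest of the 10 genes, with 1.80, 0.643, 1.06 and 1.10 FPKM in WT and 1.10, 0.761, 0.874 and 0.912 FPKM in KO. WT replicates 1 and 2 were the highest and the lowest of all 8 mice, so the KO values fell inside the WT range. Those 2 WT mice had 52 and 17 reads, with exact Poisson 95% intervals of 38.8 to 68.2 and 9.90 to 27.2 that do not meet. The KO mice had 20 to 28 reads. Its fold change was -0.14 ± 0.14 on the log2 scale (95% interval -0.45 to 0.18, limma adjusted p = 0.87). It moved to -0.013 without WT replicate 1 and to -0.25 without WT replicate 2. Of its 1428 exon bases, 401 are shared with annotated genes on the opposite strand, among them Vti1b at 51.2 FPKM. Whether the authors counted by strand is not given in the sources used here, so reads of these genes may not be separated.

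Gatm, which forms guanidinoacetate in the first step of creatine synthesis, lies on chromosome 2 from 122594467 to 122611303. WT mice were at 357, 316, 349 and 387 FPKM and KO mice at 358, 276, 334 and 317 FPKM. The groups overlapped, with KO replicate 2 the lowest of the 8 mice and WT replicate 4 the highest. The log2 fold change was -0.12 ± 0.10 (95% interval -0.34 to 0.11, limma adjusted p = 0.87), and -0.07 ± 0.08 without KO replicate 2 (limma adjusted p = 0.79).

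Gamt, the methyltransferase that completes creatine, lies on chromosome 10 from 80258151 to 80261012. Its FPKM were 24.96, 34.1, 34.0 and 27.3 in WT and 27.4, 39.3, 31.4 and 28.9 in KO. KO replicate 2 had the highest value and WT replicate 1 the lowest. On the log2 scale the fold change was 0.09 ± 0.16 (95% interval -0.26 to 0.45, limma adjusted p = 0.91). Its sign turned without KO replicate 2, at -0.04 ± 0.12 (limma adjusted p = 0.94). Per length, the first enzyme of creatine synthesis was above the second in every mouse. The ratio of Gatm to Gamt was 14.3, 9.28, 10.3 and 14.2 in WT and 13.1, 7.03, 10.6 and 10.9 in KO.

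Ckb, the brain-type cytosolic creatine kinase, which moves phosphate between ATP and creatine, lies on chromosome 12 from 111669361 to 111672338. It was at 78.6, 63.1, 68.9 and 64.3 FPKM in WT and at 72.3, 109, 75.6 and 79.0 FPKM in KO. KO replicate 2 was well above the other 7 mice, and WT replicate 1 lay within the range of the other KO mice. The mean was 68.7 ± 7.05 FPKM in WT and 83.9 ± 16.8 FPKM in KO (SD, n = 4 each). With all 8 mice the log2 fold change was 0.29 ± 0.15 (95% interval -0.04 to 0.62, limma adjusted p = 0.85), farther from 0 than in the other 9 genes. Without KO replicate 2 it was 0.13 ± 0.07 (limma adjusted p = 0.54) and Agxt2, at -0.27, was farther from 0. With array weights the values were 0.18 and -0.28. Of 5 genes typical of collecting duct principal cells, Aqp2 (364 FPKM) and Fxyd4 were highest in that mouse, while Aqp3, Scnn1g and Hsd11b2 lay inside the WT range there. Their part in the Ckb value was not tested.

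Ddah1, which hydrolyses asymmetric dimethylarginine to citrulline and dimethylamine, lies on chromosome 3 from 145758675 to 145894277. WT mice had 85.6, 88.7, 92.3 and 87.2 FPKM and KO mice had 84.3, 71.0, 82.5 and 82.9 FPKM. The deposited KO values all lay below the WT values, while after scaling WT replicate 1 fell among the KO mice. The scaled ranges were 81.4 to 94.1 in WT and 75.9 to 82.6 in KO. The log2 fold change was -0.12 ± 0.08 (95% interval -0.30 to 0.06, limma adjusted p = 0.86), and -0.09 ± 0.06 without KO replicate 2 (limma adjusted p = 0.62).

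Ddah2, the paralogue of Ddah1, lies on chromosome 17 from 35059035 to 35062095. WT mice had 13.34, 17.6, 14.5 and 15.5 FPKM, and KO mice had 12.6, 17.1, 13.9 and 16.9 FPKM. The groups covered nearly the same range. Its log2 fold change was 0.01 ± 0.13 (95% interval -0.29 to 0.30, limma adjusted p = 0.99), and its sign turned without scaling (-0.01). Ddah1 was the higher of the pair in every mouse, by 5.04 to 6.42 times in WT and 4.16 to 6.68 times in KO.

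Agxt2, the mitochondrial aminotransferase that also acts on dimethylarginines and on beta-aminoisobutyrate, lies on chromosome 15 from 10358532 to 10410153. Its FPKM were 41.6, 39.9, 46.8 and 43.2 in WT and 35.9, 38.2, 35.6 and 34.7 in KO. Every KO mouse was below every WT mouse in these values, at 36.1 ± 1.49 FPKM in KO and 42.9 ± 2.94 FPKM in WT (SD, n = 4 each). After scaling KO replicate 2 was at 40.8, above the lowest WT mouse at 39.5. The log2 fold change was -0.22 ± 0.09, with a 95% interval from -0.43 to -0.01. Its unadjusted limma p was 0.039 and its adjusted p 0.82. At that unadjusted limit 2.47% of all genes tested were lower in KO. Leaving out KO replicate 2, whose S1 and S2 list was low in its sum, gave a log2 fold change of -0.27 ± 0.07 (limma adjusted p = 0.23). Without WT replicate 3, the highest WT mouse, it was -0.17 ± 0.10 (limma adjusted p = 0.96). The unadjusted limma p stayed under 0.05 in 3 of the 8 analyses that left out 1 mouse. Without KO replicate 2 the unadjusted limma p of Agxt2 was 0.0039. In that analysis 11.46% of all genes tested were under 0.05, and 5.545% were under it and lower in KO. Gm21973, at 0 FPKM on the same strand, shares 155 exon bases with Agxt2.

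In the deposited values the 4 KO mice lay below the 4 WT mice in 3 of the 10 genes (Ass1, Ddah1 and Agxt2), and in 3.01% of all genes tested. After scaling this held for 0 of the 10 genes and for 2.83% of all genes. The scaling factors lay between 0.94 (KO replicate 2) and 1.05 (WT replicate 1), and in Ass1 and Ddah1 it was WT replicate 1 that moved into the KO range.

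**Figure D2:**
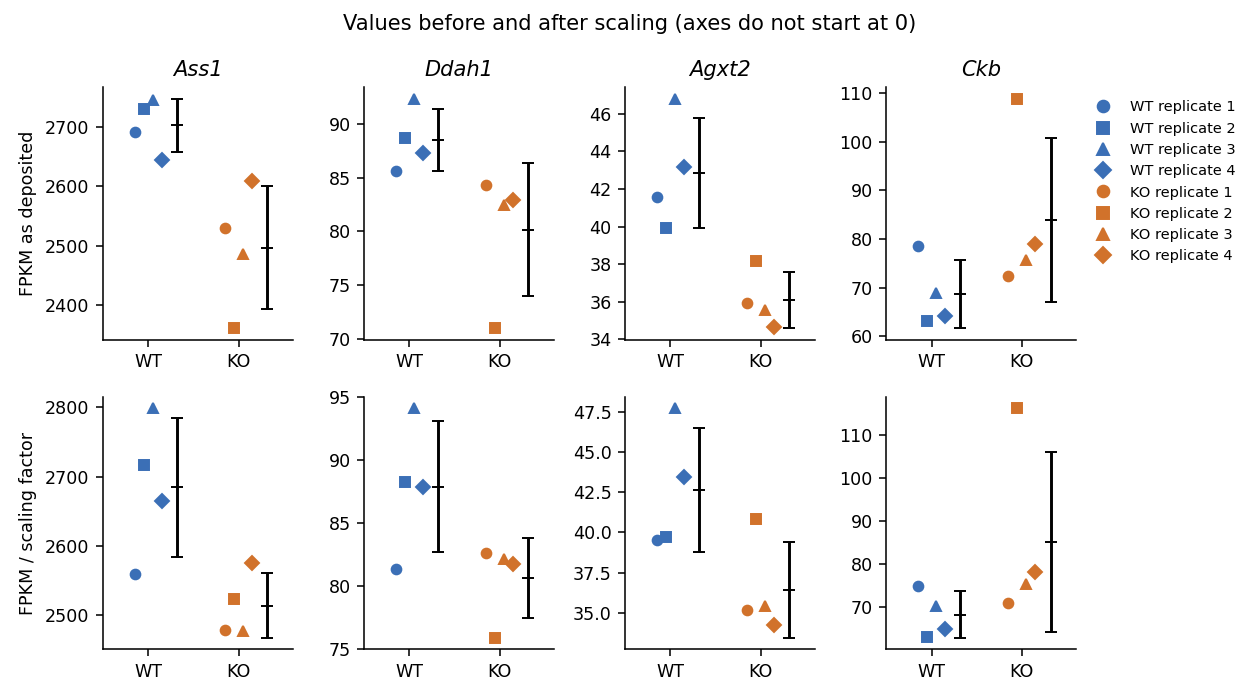
FPKM of Ass1, Ddah1, Agxt2 and Ckb as deposited (top) and divided by the scaling factor of the library (bottom), with 1 point per mouse and the mean ± SD (n = 4) in black beside it. The y axes do not start at 0. In the top row Ass1, Ddah1 and Agxt2 have all KO points below all WT points, in the bottom row each of them overlaps, and KO replicate 2 is the high Ckb point.

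The wider pathway was described with 48 further genes, of which 35 were high enough to be tested. Among these 0 were higher, 0 were lower and 35 did not pass, and the median log2 fold change was -0.03. By limma at an unadjusted p under 0.05, 2 were higher (Odc1 and Slc25a29) and 2 were lower (Prodh2 and Slc7a9), where 3.48% and 2.47% of all genes tested were. All KO mice lay above all WT mice, before and after scaling, in Odc1 and Slc25a29 (2.29% and 2.33% of all genes tested). They lay below all WT mice, before and after scaling, in Prodh2 and Slc7a9 (3.01% and 2.83% of all genes tested).

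Otc, Cps1 and Arg1, which complete the urea cycle in liver, were at or near 0. Otc, which makes citrulline from ornithine, had 0 reads in all 8 libraries, which allows up to 3 reads among 153035815. Cps1, the carbamoyl phosphate synthetase of the cycle, had 2 reads in the 4 WT and 4 in the 4 KO libraries, and Arg1, the liver arginase, had 7 and 13. Nags, whose product activates Cps1, was the highest of this group with WT at 0.249 ± 0.0667 FPKM and KO at 0.131 ± 0.0602 FPKM (SD, n = 4 each). Its level was too low to be tested. Arg2 was listed at 227 reads over the 8 libraries, with the limit on strand given above.

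Nitric oxide synthases and the methyltransferases that mark arginine in proteins were each at lower FPKM than Ddah1 and Agxt2. This did not hold for Ddah2. Its mean over the 8 mice (15.2 FPKM) was below those of Prmt5 (20.5) and Prmt1 (16.2). Among nitric oxide synthases the endothelial form Nos3 was the highest, with WT at 1.35 ± 0.248 FPKM and KO at 1.48 ± 0.360 FPKM (limma adjusted p = 0.90). The other 2 forms, Nos1 and Nos2, were at 0.382 FPKM or less in every mouse and were not tested. Of 9 arginine methyltransferases 8 were tested, with log2 fold changes between -0.04 and 0.09. Prmt5, which makes symmetric dimethylarginine, was the highest at 20.6 ± 1.03 and 20.5 ± 0.888 FPKM (limma adjusted p = 0.99). Prmt6, which makes the asymmetric form, had the lowest p of the group at 9.29 ± 0.624 and 9.79 ± 0.928 FPKM (limma adjusted p = 0.87).

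Slc6a8, the creatine transporter of the plasma membrane, was at 126, 125, 122 and 122 FPKM in WT and at 125, 75.0, 132 and 133 FPKM in KO. KO replicate 2 was far below the other 7 mice, while KO replicates 3 and 4 lay above the WT range and KO replicate 1 inside it. Limma gave a log2 fold change of -0.10 ± 0.15 (limma adjusted p = 0.90), whose sign turned without KO replicate 2, at 0.06 ± 0.06 (limma adjusted p = 0.73). Slc16a12, a second creatine transporter, was at 35.3 ± 2.45 and 31.6 ± 4.40 FPKM (limma adjusted p = 0.86). Of the other creatine kinases, the mitochondrial Ckmt1 was at 26.8 ± 3.24 and 27.6 ± 2.51 FPKM, while the muscle forms Ckm and Ckmt2 had 4 reads and 1 read in all.

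Carriers of arginine and its relatives included the pair Slc3a1 and Slc7a9, which together take up cystine and dibasic amino acids from the tubular fluid. Slc3a1 was at 163, 160.3, 173 and 152 FPKM in WT and at 145, 86.2, 154 and 156 FPKM in KO. The groups overlapped, and KO replicate 2 was far below the other mice (log2 fold change -0.27 ± 0.16, limma adjusted p = 0.86). Without that mouse the log2 fold change was -0.10 ± 0.07 (limma adjusted p = 0.64). Slc7a9 was at 74.8, 83.6, 78.8 and 76.1 FPKM in WT and at 63.4, 60.5, 71.4 and 63.6 FPKM in KO. All KO mice were below all WT mice before and after scaling, with a log2 fold change of -0.25 ± 0.09 (limma adjusted p = 0.70). Slc25a29, a mitochondrial carrier of basic amino acids named here after its values were seen, had 3.78 ± 0.186 FPKM in WT and 4.598 ± 0.342 in KO (SD, n = 4 each). Its log2 fold change was 0.24 ± 0.09 (limma adjusted p = 0.75).

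The remaining links lead to proline, polyamines, glutamine and glycine. Prodh, proline dehydrogenase, was the highest of the proline group at 139.5 ± 9.71 and 150.1 ± 10.3 FPKM (limma adjusted p = 0.86). Prodh2, which oxidises hydroxyproline, had the lowest p of all 35 genes. Its FPKM were 68.6, 67.0, 69.8 and 75.9 in WT and 55.1, 49.4, 61.8 and 62.2 in KO, and all KO mice lay below all WT mice before and after scaling. The log2 fold change was -0.28 ± 0.09 (limma adjusted p = 0.69). Odc1, which turns ornithine into putrescine, was at 287, 275, 294 and 272 FPKM in WT and at 436.7, 321, 329 and 328 FPKM in KO. Every KO mouse was above every WT mouse, and KO replicate 1 was the highest (log2 fold change 0.34 ± 0.11, limma adjusted p = 0.69). Glul, glutamine synthetase, was at 261 ± 27.1 and 245 ± 8.57 FPKM (limma adjusted p = 0.91), and Amt, of the glycine cleavage system, at 63.2 ± 2.94 and 55.4 ± 6.35 FPKM (limma adjusted p = 0.85).

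**Figure D3:**
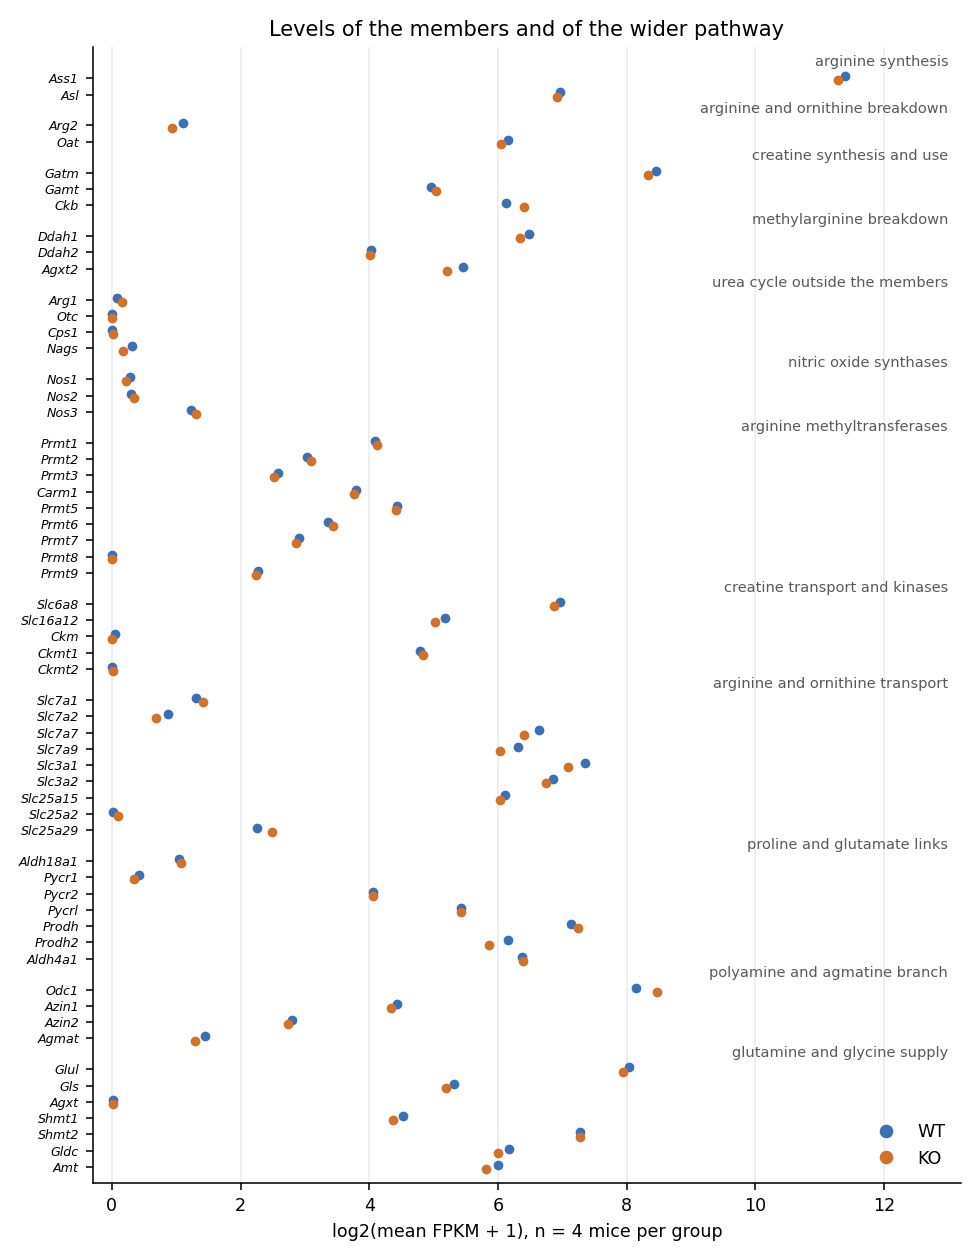
Mean level of the 10 genes and of 48 further genes of the pathway, as log2(mean FPKM + 1), in WT (blue) and KO (orange), n = 4 mice each, grouped by role with no error bars. Ass1 is far to the right, Otc and Cps1 lie at or near 0, and the points of the 2 groups nearly coincide for most genes.

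**Figure D4:**
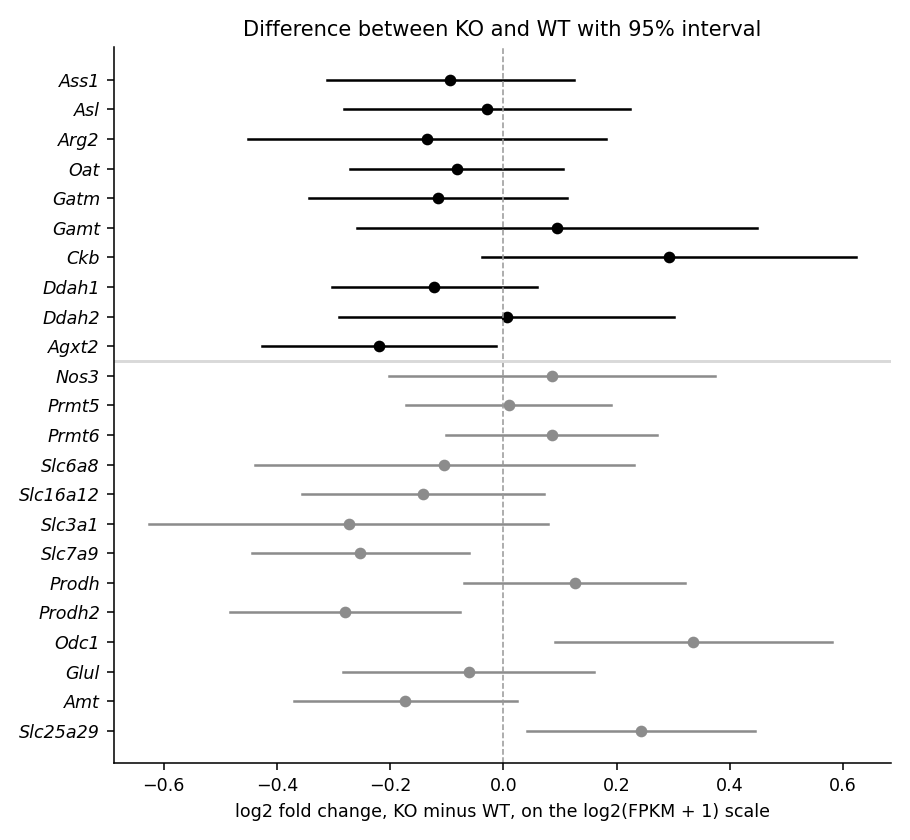
Log2 fold change of KO against WT with its 95% interval from limma for the 10 genes (black) and for 13 further genes of the pathway named in the text (grey). Among the 10 genes the interval of Agxt2, from -0.43 to -0.01, is the one that leaves out 0, and none passed after adjustment.

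Markers of kidney cell types were read in the same libraries. For S1 and S2 the list lay, relative to its WT mean, at -0.60 on the log2 scale in KO replicate 2. The 3 other KO mice lay at -0.08 to -0.06 and the WT mice at -0.12 to 0.08. Of these 7 genes 6 had fold changes below 0, where 52.8% of all genes tested did, and 0 passed. In Slc6a19 all KO mice lay below all WT mice before and after scaling (3.01% and 2.83% of all genes tested). In Cubn this held before scaling only. Slc22a6 went the other way, at 405 to 411 FPKM in KO and 337 to 403 FPKM in WT. Its KO mice all lay above all WT mice before and after scaling (2.29% and 2.33% of all genes tested). In the deposited values KO replicate 2 was the lowest of these KO mice. The S3 list lay at 0.53 in KO replicate 2, at -0.07 to 0.06 in the 3 other KO mice and at -0.12 to 0.23 in WT. The endothelial list was lower in KO replicate 2 than the S1 and S2 list, at -0.65. It lay at -0.02 to 0.11 in the 3 other KO mice and at -0.10 to 0.05 in WT. Lists for thick ascending limb, distal convoluted tubule, intercalated cells, podocytes and macrophages were also lowest in that mouse. The principal cell list was highest in it, at 0.44. Ass1, Gatm, Ddah1, Slc6a8, Slc16a12, Slc3a1, Slc7a9, Prodh2 and Amt were each lowest in the same mouse in the deposited values. Asl, Gamt, Ckb and Ckmt1 were each highest in it. Without KO replicate 2 the log2 fold changes of Slc7a9 and Prodh2 were -0.25 and -0.24. Urothelial markers summed to 12.5 to 29.3 FPKM in KO and 3.16 to 8.75 FPKM in WT. All KO mice lay above all WT mice in Upk3a, Upk2 and Psca, before and after scaling (2.29% and 2.33% of all genes tested), while Krt19 overlapped. Upk1b overlapped in the deposited values but not after scaling, by a narrow margin (lowest KO mouse 0.611, highest WT mouse 0.607). Immediate early and heat shock genes, listed as a sign of tissue handling, summed to 58.5 to 114 FPKM in KO and 28.9 to 37.6 FPKM in WT, but different members made up the sum in different KO mice. The immediate early gene Jun was at 70.2 FPKM in KO replicate 2 and at 14.9 to 19.6 FPKM in the other KO mice, and Fos and Egr1 were also highest in KO replicate 2. Fos in KO replicates 1 and 3 lay inside the WT range. The heat shock gene Hspa1b was at 25.8 to 56.7 FPKM in KO replicates 1, 3 and 4, and at 10.8 FPKM in KO replicate 2, inside the WT range of 7.24 to 12.7 FPKM. Hspa1a was at 9.79 to 20.9 FPKM in KO replicates 1, 3 and 4. In KO replicate 2 it was at 5.59 FPKM, just above the WT range of 2.89 to 5.405 FPKM. The part of any of these in the values of the 10 genes was not tested.

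**Figure D5:**
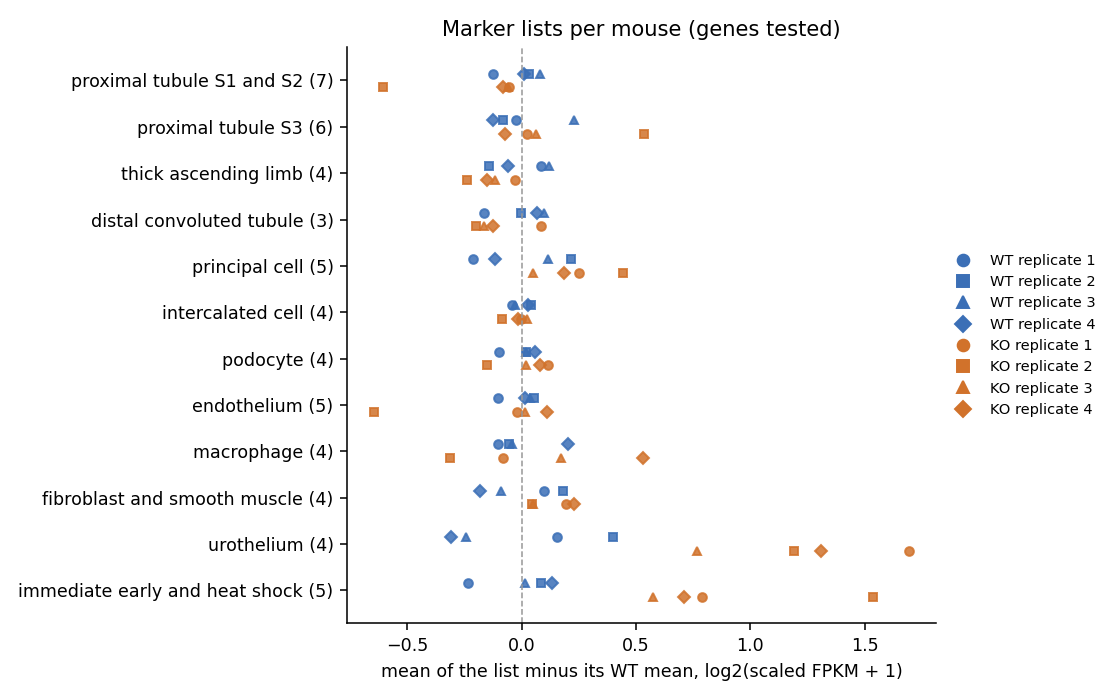
Mean of each marker list in each mouse, as log2(scaled FPKM + 1) minus the WT mean, with the number of tested genes in brackets, 1 point per mouse. KO replicate 2 (orange square) lies at -0.60 for S1 and S2, at -0.65 for endothelium and at 0.53 for S3. The list means of all KO mice lie above those of all WT mice for urothelium and for the immediate early and heat shock genes. Single genes of both of these lists overlap.

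For each of the 10 genes the most similar patterns over the 8 libraries were sought among 7697 genes with a mean of at least 5 FPKM, by Pearson's r of log2 values. The r of the nearest gene was between 0.91 (Wdr73, for Gatm) and 0.99 (Srm, for Ddah2). For Ass1 the nearest were Entpd8 (r = 0.98) and the glucose transporter Slc2a2 (r = 0.97). For Asl they were Cda and Naca, for Ckb Krtcap2 and Ppp1r35, for Ddah1 Dlst and Tmem104, and for Agxt2 Uqcc1 and Chmp3. These r are the highest of many, they share the libraries and the scaling, and KO replicate 2 weighs on several of them, so they are given as a description.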

How the data were processed

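The table that the authors deposited holds 1 column for each mouse and names no unit. Its deposited values were taken as FPKM, because column totals differed and the smallest values rose in equal steps, finer for longer genes. The tools listed in the submitters' processing notes are STAR 2.5, HTSeq 0.6.1, DESeq2 and CASAVA, with mm10 as the build. What each did, the annotation and the strand setting are not stated there.

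Library totals and reads were recovered from the FPKM steps with gene lengths fitted: 22945 of 22945 genes above 0 came out whole within 0.002 reads. Of 500 genes averaging 1 FPKM or more, 0 did so with totals shifted by up to 0.1%. Genes below that mean were not checked in this way. At the M21 exon length 5865 genes came out whole. For the others the shortest length that fitted was taken, and a gene seen in few libraries fits easily. Reads of low genes therefore rest on the fitted length and may be too few. Libraries were scaled by trimmed means of M values from these reads (0.3 of log ratios and 0.05 of levels trimmed). All genes averaging 1 FPKM or more were tested with limma 3.58.1 in R 4.3.3 (trend and robust options, pseudocount 1, Benjamini-Hochberg at 0.05). Fold changes on the log2(FPKM + 1) scale understate those of low genes. The procedure was tested on simulated data. PCR copies were not marked, so intervals for reads cover only counting error.

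Mice were grouped by genotype label, and replicate numbers only name mice. Each library is a different mouse. The genes and lists were chosen with earlier results of these data known. Named genes of the wider pathway were, for each role, the highest in level, the lowest in p and any past the threshold. Positions are from GENCODE M21 (mm10) and sequences from RefSeq (GRCm38.p6, entries for 8 of the 10 genes). All 48 further genes were found in the table, Prmt9 and Azin2 under older symbols.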

Additional observations from a re-analysis of the deposited data

Results flagged for a closer look

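In groups of 4 mice, a mouse was singled out when its gap to the nearest other mouse passed the 95% critical value of Dixon's test, which chance alone gives in about 1 of 20 groups. Of 46 groups examined (10 genes and 13 further genes of the pathway, in KO and in WT), 7 met this, all in KO. KO replicate 2 was singled out for Asl, at 139 FPKM against 112 to 116 in the other KO mice, and for Ddah1, at 71.0 against 82.5 to 84.3. The same mouse was singled out for Slc6a8, at 75.0 FPKM against 125 to 133, and for Slc3a1, at 86.2 against 145 to 156. KO replicate 3 was singled out for Oat at 64.3 FPKM against 65.8 to 66.0, a group with a small range. KO replicate 1 was singled out for Odc1, at 436.7 FPKM against 321 to 329, and KO replicate 4 for Nags, at 0.221 FPKM against at most 0.103 in the others.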

How the results depend on the processing

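The counts of 0 higher and 0 lower among the 10 genes and among the further genes of the pathway did not change in any of the 15 alternatives. The count of all genes higher in KO was 1 with a mean FPKM of at least 5 and 30 with array weights, and between 2 and 16 with 1 mouse left out. The count lower in KO was 29 with array weights and between 1 and 12 with 1 mouse left out. These counts, higher and lower, were 9 and 12 without KO replicate 2, 16 and 4 without KO replicate 3, 4 and 5 without KO replicate 4, 4 and 3 without WT replicate 2, 2 and 1 without WT replicate 1, and 2 and 1 without WT replicate 3. Of the 10 genes, 3 changed sign somewhere, and 0 passed. With 1 mouse left out Asl lay between -0.13 and 0.013, Gamt between -0.037 and 0.17 and Ddah2 between -0.079 and 0.096 on the log2 scale. With array weights Gamt was at -0.051 and Ddah2 at -0.13, and without scaling Ddah2 was at -0.014. The array weight of KO replicate 2 was 0.10, against 0.64 to 2.31 in the other mice, so this mouse counted little in that analysis. For Agxt2 the adjusted p lay between 0.11 and 0.96 over the alternatives, with log2 fold changes from -0.28 to -0.17. The cause of these shifts was not tested. For Arg2 the log2 fold change was -0.24 by limma-voom on recovered reads. The filter at 5 FPKM left Arg2 untested. No paired analysis was possible because no label ties a KO mouse to a WT mouse. At 17 to 52 reads a library, depth limits Arg2, and 13 further genes were too low to be tested.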
